A study of Sus scrofa with 8 samples.

Results

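Lactate dehydrogenase and the glycolysis enzymes LDHA, LDHB, LDHC, GAPDH, GPI, PGK1, ALDOA, ENO1 and PKM were looked up on the porcine Agilent array by the RefSeq accession of each probe and by the gene names that the study gave to its listed probes. Of these 9 genes 3 had a named probe, LDHB with 3 probes, GPI with 1 and PGK1 with 1, which makes 3 of the 2228 genes that could be named and 5 of the 43603 probes on the array. The other 6 genes had no probe under these names and were not analysed here, among them the somatic subunit LDHA and the germ-cell subunit LDHC. Testis RNA of 8 Large White boars was hybridized to 1 array each with a single dye (Cy3). From month 1 to month 10 of age, 4 boars (m_9597, m_9599, m_9499 and m_9527) were fed a standard diet with added methionine, choline, betaine, folate and vitamins B6 and B12, and 4 boars (m_9598, m_9600, m_9502 and m_9528) the standard diet as control. The boars m_9597 to m_9600 were full brothers from 1 litter, 2 on each diet, and shared 1 slide, while the other 4 boars, also 2 on each diet, shared the second slide. The paper states that the 8 boars came from 3 litters and were allotted to the diets at random within litter. The other 4 boars are thus not 1 litter. On both slides the supplemented boars lay on places 1 and 3 and the control boars on 2 and 4, and an effect of the place cannot be told apart from one of the diet. The comparison of the diets asks whether methyl donors in the feed changed the RNA of these enzymes in the testis, and each sample is whole tissue, in which fewer cells of a type and less RNA per cell cannot be told apart.

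In glycolysis glucose is split to pyruvate, and lactate dehydrogenase, a tetramer of A, B or C subunits, turns pyruvate to lactate and back. In the testis the Sertoli cells ferment glucose and hand lactate to the spermatocytes and round spermatids, which burn it. Germ cells use their own forms of several of these enzymes, such as LDHC and PGK2, a copy of the X-linked PGK1 gene without introns that is active when the X chromosome is silenced in meiosis.

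All 5 probes were well above background on each of the 8 arrays, and no spot of the series was saturated. The median spot intensity of an array was between 108 and 192.5, and 36982 probes were present, which means a signal above 25 and the flag for well above background on at least 2 arrays of a diet. Values below are quantile-normalized log2 signals, and a difference is the supplemented minus the control diet on this scale. Probes bind with unequal strength, so that a level of one gene cannot be set against that of another. Over all present probes limma gave 0% with an adjusted p under 0.05 between the diets, 1.86% with an unadjusted P under 0.05, and 1.13% in which no boar of one diet lay inside the range of the other.

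LDHB codes for the heart-type subunit of lactate dehydrogenase. Its brightest probe, A_72_P007566, gave a median of 547 times the local background of its spot and log2 signals of 13.65, 13.56, 13.65 and 13.54 in the supplemented boars m_9597, m_9599, m_9499 and m_9527. In the control boars m_9598, m_9600, m_9502 and m_9528 it gave 13.69, 13.66, 13.28 and 13.82. The control boars thus lay on both sides of the supplemented boars, with m_9502 lowest and m_9528 highest of all. The means were 13.60 ± 0.06 (SD, n = 4) and 13.61 ± 0.23 (SD, n = 4), a difference of -0.01 (standard error 0.15, adjusted p = 0.983 from limma). Its 95% confidence interval ran from 0.782-fold to 1.25-fold.

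The probe A_72_P095666 of LDHB gave 11.84, 11.83, 11.71 and 11.31 in the supplemented boars and 11.95, 12.09, 11.09 and 12.11 in the control boars, in the same order of boars. The third probe, A_72_P321168, gave 13.21, 13.34, 12.90 and 12.76 against 13.33, 13.50, 12.58 and 12.89. In both probes boar m_9502 was again the lowest of the 8, and the diets overlapped. The differences were -0.14 (standard error 0.25, adjusted p = 0.890 from limma) and -0.02 (standard error 0.23, adjusted p = 0.981 from limma). The intervals were wider than that of the brightest probe, from 0.618-fold to 1.34-fold and from 0.686-fold to 1.41-fold. All 3 probes carry one accession, so that they are not separate evidence on LDHB. RefSeq lists 2 pig genes under the symbol LDHB, and the accession belongs to one of them. Whether the probes tell these genes apart was not tested.

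**Figure D1:**
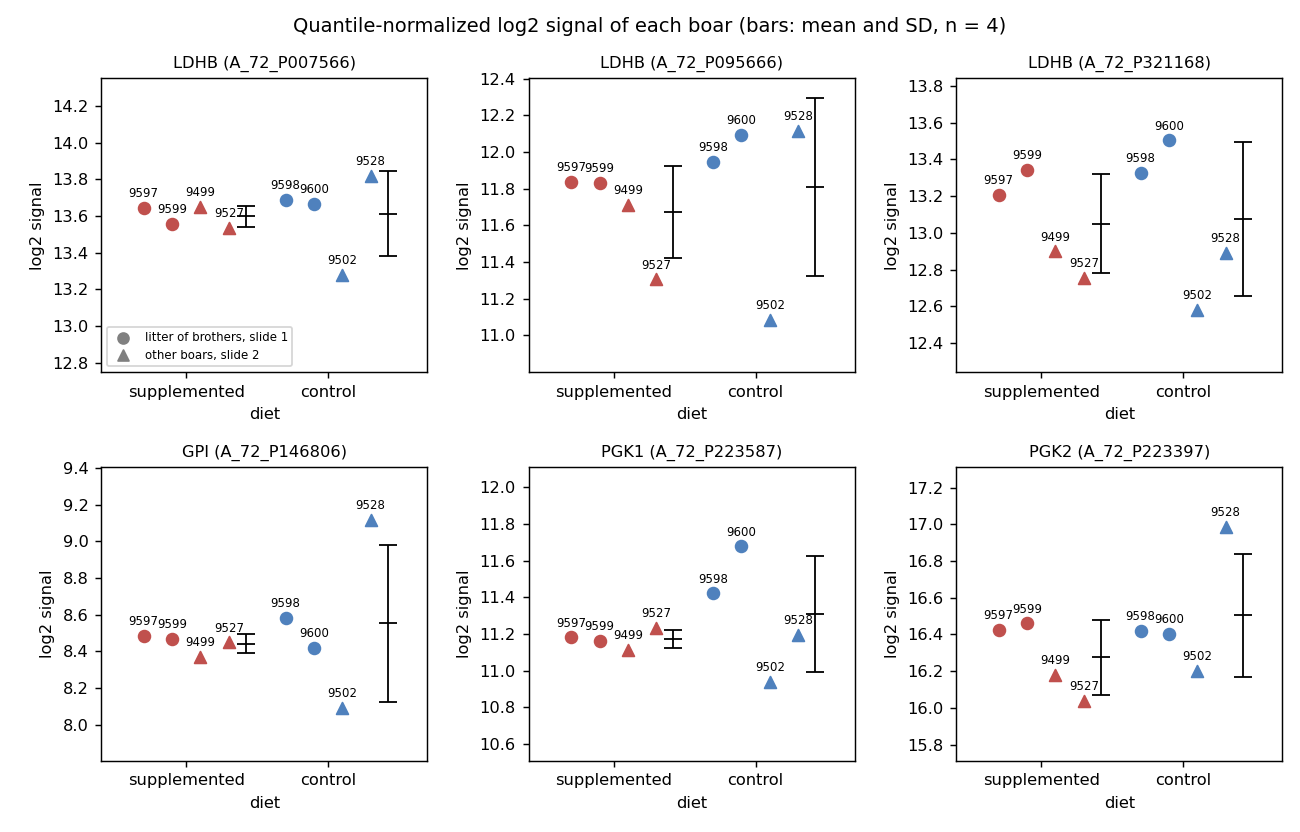
Log2 signal of each boar (points, labelled by number) for the 3 LDHB probes, GPI, PGK1 and the germ-cell form PGK2, by diet, with circles for the litter of brothers and triangles for the other boars, and bars for the mean and SD of 4 boars. The diets overlap in each, and in the 5 panels other than PGK2 control boar m_9502 is the lowest point.

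The 3 LDHB probes did not separate the litter of brothers from the other boars alike. For A_72_P321168 the 4 brothers lay between 13.21 and 13.50 and the other 4 boars between 12.58 and 12.90, so that the 2 sets of boars did not overlap. The others were lower by a difference of -0.56 (standard error 0.14, unadjusted P = 0.00386, adjusted p = 0.554, limma with the diet in the model). Boars did not overlap between the slides in 6.18% of all present probes, and 8.11% had an unadjusted P under 0.05, with 0% under 0.05 after adjustment. For A_72_P007566 the means were 13.64 ± 0.06 (SD, n = 4 brothers) and 13.57 ± 0.23 (SD, n = 4 others), and the 2 sets of boars overlapped. They overlapped also for A_72_P095666, with a difference of -0.37 (standard error 0.23, adjusted p = 0.663 from the same fit). Within each boar, A_72_P007566 exceeded A_72_P321168 by 0.16 to 0.44 in the brothers and by 0.70 to 0.93 in the others, without overlap. This difference contains the probe that was already separated and is no second observation. The differences of A_72_P095666 from each of the other probes overlapped. The litter of brothers and the slide cannot be told apart.

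**Figure D2:**
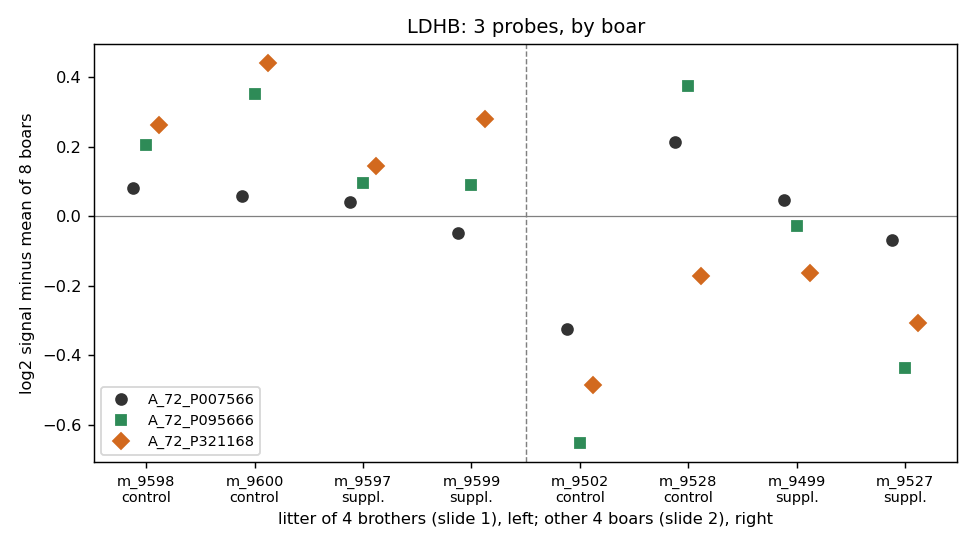
Log2 signal of the 3 LDHB probes in each boar, each probe relative to its own mean over the 8 boars, with the litter of brothers left and the other boars right of the dashed line. The diamonds of A_72_P321168 are above 0 in the 4 brothers and below 0 in the 4 others, while the circles of A_72_P007566 have both signs on each side.

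GPI codes for glucose-6-phosphate isomerase, which turns glucose 6-phosphate to fructose 6-phosphate. Its only named probe, A_72_P146806, was the dimmest of the members, with 10.1 to 29.5 times the local background. The supplemented boars m_9597, m_9599, m_9499 and m_9527 gave 8.48, 8.47, 8.37 and 8.45, and the control boars m_9598, m_9600, m_9502 and m_9528 gave 8.58, 8.42, 8.09 and 9.12. The supplemented boars lay close together, and boars m_9502 and m_9528 were the extremes of the series. The means were 8.44 ± 0.05 (SD, n = 4) and 8.55 ± 0.43 (SD, n = 4), with a difference of -0.11 (standard error 0.21, adjusted p = 0.896 from limma) and an interval from 0.671-fold to 1.28-fold.

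PGK1 codes for the somatic phosphoglycerate kinase, the first enzyme of the pathway to make ATP. Its probe A_72_P223587 had a median of 101 times the local background. It gave 11.18, 11.16, 11.11 and 11.23 in the supplemented boars and 11.42, 11.68, 10.94 and 11.20 in the control boars, in the order above. Boar m_9600 was highest and boar m_9502 lowest, and both were controls. The means were 11.17 ± 0.05 (SD, n = 4) and 11.31 ± 0.31 (SD, n = 4), with a difference of -0.14 (standard error 0.17, adjusted p = 0.858 from limma) and an interval from 0.694-fold to 1.19-fold. The difference was -0.38 among the 4 brothers and 0.10 among the other 4 boars, and the test of diet by slide gave an unadjusted P of 0.141 and an adjusted p of 0.99996 from limma.

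PGK2, the phosphoglycerate kinase of meiotic and later germ cells, was the only germ-cell form of a member enzyme with a named probe, A_72_P223397, and stood at 2240 to 4880 times its local background. It gave 16.42, 16.46, 16.18 and 16.04 in the supplemented and 16.42, 16.40, 16.20 and 16.99 in the control boars. The 4 brothers lay within 16.40 to 16.46, while the other boars spread from 16.04 to 16.99. The diet difference was -0.23 (standard error 0.20, adjusted p = 0.840 from limma). Within each boar the log2 signal of PGK2 minus that of PGK1 was 5.24, 5.30, 5.07 and 4.81 on the supplemented diet and 5.0, 4.73, 5.26 and 5.79 on the control diet. This is no ratio of RNA amounts, but its change between boars can be read. The means, 5.10 ± 0.22 (SD, n = 4) and 5.19 ± 0.45 (SD, n = 4), differed by less than the spread between boars, and the difference of -0.09 was made up of 0.41 for the brothers and -0.59 for the boars of the second slide.

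With limma, 0 of the 5 member probes had an adjusted p under 0.05 between the diets, and 0 had an unadjusted P under 0.05. All 5 differences were below 0, with a median of -0.11, where 50.5% of all present probes were below 0 and their median was -0.0028. Each of the 5 intervals included 0, and the 3 intervals of LDHB were of unequal width. The SD between boars was larger on the control than on the supplemented diet in all 5 probes, as in 67.1% of the present probes.

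**Figure D3:**
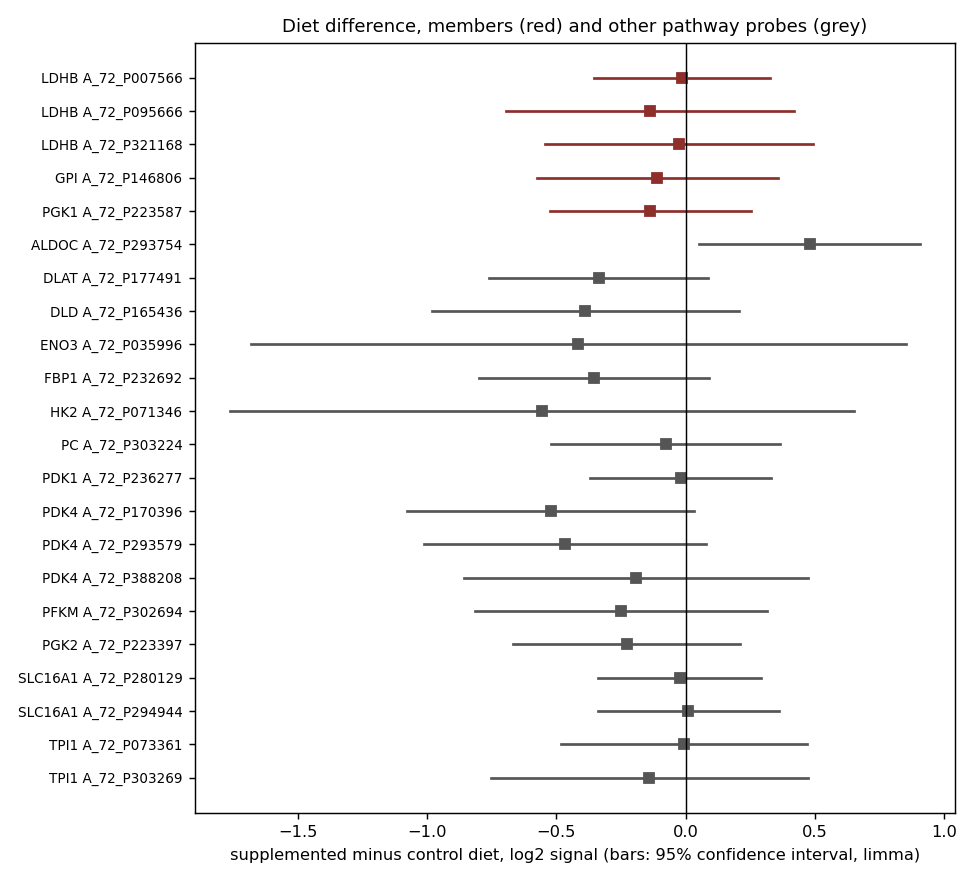
Difference between the diets for the 5 member probes (red) and 17 present probes of other genes of the pathway (grey, without SLC2A2), on the log2 scale, with 95% confidence intervals from limma. The intervals of the members all include 0, and that of ALDOC alone does not.

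The control boar m_9502 gave the lowest signal of the 8 boars in 5 of 5 member probes, as it did in 11.6% of all present probes, and 3 of the 5 share an accession. Of the 18 present probes of other pathway genes described below, m_9502 was lowest in 1 and m_9527 in 9. Without m_9502 the differences were -0.13, -0.38 and -0.19 for the LDHB probes A_72_P007566, A_72_P095666 and A_72_P321168, -0.26 for GPI and -0.26 for PGK1. The smallest adjusted p among them from limma was 0.309, for A_72_P095666, and that was the smallest of any member between the diets under any alternative. The control boar m_9528 was the highest in 3 of the 5, as in 25.5% of all present probes, and without it the difference of GPI was 0.08. Markers of late germ cells were the spermatid genes PRM1, PRM2, ODF1, ZPBP and CRISP2, 5 of the 14 genes of the list with a named probe, none of them near background. Relative to the mean of the boars, the median of their 7 probes was -0.39 in m_9502, 0.61 in m_9528 and between -0.60 and 0.35 in the other boars. CRISP2 had more than 1 of these probes, and the 5 genes did not move alike. In m_9502 and m_9528, CRISP2 A_72_P305994 gave 15.5 and 17.4 and ZPBP gave 15.6 and 16.6. PRM1 gave 18.4 and 18.8, PRM2 18.3 and 18.5, and ODF1 14.2 and 14.3 in these 2 boars. The spermatogonia list, with KIT and UCHL1 of 8 genes, had medians of -0.18 in m_9502 and -0.87 in m_9528, so that these lists had opposite signs in m_9528, and the spermatocyte list had only SPO11. The summed linear signal of the spermatid list was between 886397 and 1195570 on the supplemented diet and between 935337 and 1505160 on the control diet. The median of the Sertoli cell list, with 8 of 9 genes, was -0.09 in m_9502 and -0.01 in m_9528, and the sum was 24126 to 39726 on the supplemented and 22280 to 52093 on the control diet. Over the 10 marker lists with a probe, 0 of 62 probes had an unadjusted P under 0.05, and the list medians of the diet difference were between -0.95 for duct epithelium and 0.34 for macrophages. The duct epithelium list had only CDH1 and EPCAM, and the boars of a diet differed widely. Its medians ran from -1.84 in m_9597 to 0.86 in m_9599 on the supplemented diet. On the control diet they ran from -0.76 in m_9502 to 1.44 in m_9598. The part of cell composition in the member values was not tested.

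**Figure D4:**
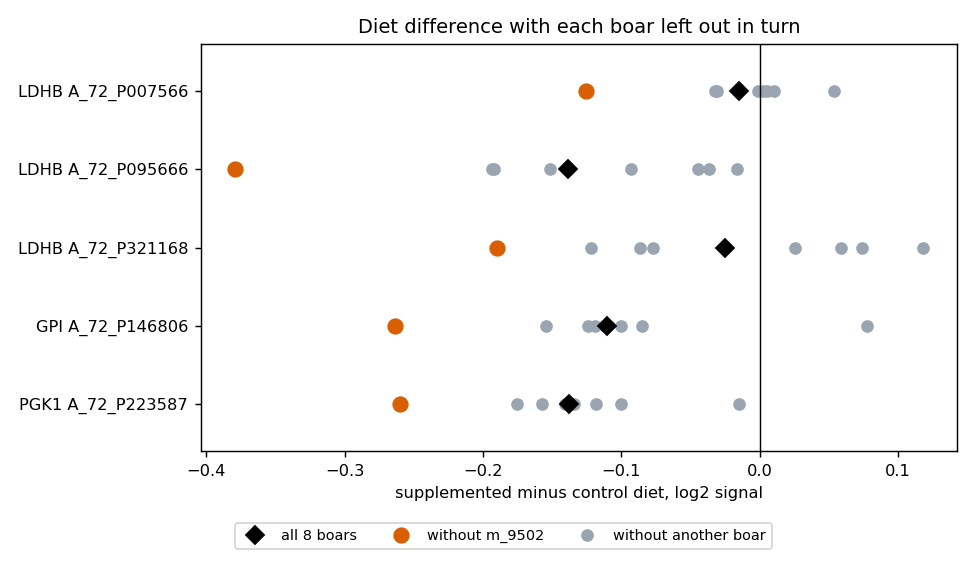
Difference between the diets on the log2 scale for the 5 member probes, with all 8 boars (diamonds) and after dropping single boars (circles, orange for control boar m_9502). The leftmost point of each probe is the one without m_9502, at -0.38 for LDHB A_72_P095666. Removal of the lowest control lowers a difference in any case.

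Of 57 other genes of glycolysis, transport, pyruvate use and gluconeogenesis, 15 had a named probe, and 18 of their 19 probes were present. In limma 1 of the 18 had an unadjusted P under 0.05, higher on the supplemented diet, against 0.938% of the present probes, and 0 were lower, against 0.925%. Some probes of the array had a name only through the study's list of probes with P under 0.05 between these diets. The 1 probe is on that list. The naming thus favours probes with a low P, and the count cannot be set evenly against these shares. None of the 18 had an adjusted p under 0.05. The median difference of the 18 was -0.21, with 2 above and 16 below 0, where 50.5% of all present probes were below 0. It was -0.23 over the 17 without SLC2A2, which was near background. PDK4, TPI1 and SLC16A1 had more than 1 probe each, so that the 18 are not separate evidence, and several signs turned under the alternatives below.

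The 1 probe was that of ALDOC (A_72_P293754), the brain-type aldolase, which splits fructose 1,6-bisphosphate like the member ALDOA. It gave 12.32, 12.38, 12.38 and 12.95 in the supplemented boars m_9597, m_9599, m_9499 and m_9527 and 12.07, 12.05, 12.27 and 11.71 in the control boars m_9598, m_9600, m_9502 and m_9528. The diets did not overlap, and the difference was 0.48 (standard error 0.19, adjusted p = 0.840 from limma). The study had listed this probe for its difference in the same boars, so that it is no independent evidence. Without boar m_9527 the difference was 0.33, and the unadjusted P of 0.0314 was over 0.05 without m_9598, m_9600, m_9528 or m_9527.

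Among the other enzymes of the upper pathway, the hexokinase HK2 (A_72_P071346) was dim, not well above background in boar m_9502, and varied from 5.44 to 7.65. It had a difference of -0.56, which was -1.55 in the brothers and 0.44 in the others. With single boars dropped it lay between -1.06 and -0.34, and the lowest value was that without m_9502 (unadjusted P = 0.0288, adjusted p = 0.281 from limma). In limma on the brothers alone, 2 boars on each diet, the unadjusted P was 6.5e-05 and the adjusted p 0.149. The other boars alone gave an unadjusted P of 0.616 and an adjusted p of 0.986 from limma. With array weights the difference was -1.31 (unadjusted P = 0.0019, adjusted p = 0.279 from limma). The muscle-type phosphofructokinase PFKM (A_72_P302694) had a difference of -0.25. The TPI1 probes of triose phosphate isomerase had -0.01 (A_72_P073361) and -0.14 (A_72_P303269). The muscle enolase ENO3 (A_72_P035996), a form of the member ENO1, ranged from 8.13 in m_9527 to 11.13 in m_9528, with a residual SD above that of 98.8% of the present probes and a difference of -0.42 (standard error 0.56). The skeletal muscle markers, with 4 of 6 genes measured, had a summed linear signal of 564 to 1548 on the supplemented and 552 to 1034 on the control diet. Relative to the mean of the boars, the median of this list was -0.03 in m_9527 and 0.16 in m_9528. This median rests on dim probes, as those of MYH1, MYH2 and TNNT3 gave only 5.08 to 6.36. The brighter probe of CKM gave 7.66 in m_9527 and 9.14 in m_9528, within a range from 7.64 in m_9600 to 10.25 in m_9499. The part of skeletal muscle in the ENO3 values was not tested.

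The 2 probes of SLC16A1, a carrier that moves lactate across the cell membrane, had differences of -0.02 (A_72_P280129) and 0.01 (A_72_P294944), with a range over the 8 boars of 0.31 and 0.43 on the log2 scale. The glucose carrier SLC2A2 (A_72_P077641) was well above background on 0 of 4 arrays of the supplemented and 2 of 4 of the control diet, and no fold is given for it. Of the genes that decide the fate of pyruvate, PDK4, a kinase that switches off pyruvate dehydrogenase, had differences of -0.52 (A_72_P170396), -0.47 (A_72_P293579) and -0.19 (A_72_P388208), and PDK1 (A_72_P236277) had -0.02. DLAT (A_72_P177491) and DLD (A_72_P165436), which code for subunits of pyruvate dehydrogenase, had -0.34 and -0.39. The pyruvate carboxylase PC (A_72_P303224) had -0.08 and FBP1 (A_72_P232692), an enzyme of gluconeogenesis, -0.35. The adjusted p of each of these probes was between 0.840 and 0.995 from limma.

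The genes whose values moved most like those of a member were looked up among the 2918 named present probes, by Pearson's r over the 8 boars after the diet means were taken out. They were chosen for this likeness and carry no test. For LDHB A_72_P007566 the closest were VDAC1 (r = 0.986), APP (0.979), CDS2 (0.979), PPP1CB (0.975) and CDKN1B (0.969). For GPI they were P4HA1 (r = 0.997), SSTR2 (0.977), NCOA2 (0.964), AK3 (0.959) and SOX17 (0.957). For PGK1 they were RP9 (r = 0.973), SLC35D2 (0.948), CDH5 (0.948), GRB14 (0.947) and MAGED1 (0.930). Without boars m_9502 and m_9528, the farthest from the median, r was 0.746 to 0.900 for the genes like LDHB and 0.138 to 0.949 for those like GPI. Without m_9502 and m_9600 it was 0.360 to 0.805 for those like PGK1.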

How the data were processed

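The members and gene lists were chosen with earlier results of these data known. The deposited array files hold unnormalized intensity per spot from Feature Extraction (version 10.5.1.1 per the file headers). A second deposited file holds quantile-normalized log2 values of the authors, with a median of 8.18 per boar. They had a correlation of 0.999998 with those computed here. Flags in the deposited files mark spots well above background, outliers and saturation. The paper took gMedianSignal as raw value. Its log2 was quantile-normalized here over the 43803 spots that are not controls, without background subtraction, so that fold changes of dim probes are understated, and spots of one probe were averaged. Diets were compared by two-sided tests of limma 3.58.1 (R 4.3.3), and p-values of the 36982 present probes were adjusted after Benjamini and Hochberg. The slide was compared in the same way with the diet in the model. The code was tested on simulated data. The 4 boars per diet limit the precision, and boars were the replicates.

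RefSeq names came from 2628 matched accessions (Sscrofa11.1, names only), with those of the study's list of testis probes kept first. No sequences were used. The difference of LDHC and LDHA that was planned had no probes, and PGK2 and PGK1 were taken in their place after the data were seen, as were the genes for the likeness search. By rule the text names all member probes, and of the pathway list those with an unadjusted P under 0.05 and the germ-cell or muscle isoforms of the members. The other pathway probes present were named after their values were seen. Alternatives were gProcessedSignal or gMedianSignal scaled to the 75th percentile, normexp with an offset of 50, other filters, removal of outlier spots, other variance models, array weights, the slide as a block, each slide alone, the authors' log2 table and the removal of single boars.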

Additional observations from a re-analysis of the deposited data

Results flagged for a closer look

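In 7 of 48 groups of 4 boars, the gap between 1 boar and the rest of its diet exceeded the limit of Dixon's test at 95%, where chance alone gives about 1 in 20, or 2.4. Over all present probes 6.84% of such groups exceeded it. Among the members this was LDHB A_72_P095666, at 11.09 in control boar m_9502 against 11.95 to 12.11 in the other controls. In 5 of the 7 groups the boar was m_9527 on the supplemented diet, as in 37.6% of the groups that exceeded the limit over all present probes. This boar was the lowest of the 8 in 23.3% and the highest in 23.7% of all present probes. It was high for ALDOC A_72_P293754, at 12.95 against 12.32 to 12.38, and for HK2 A_72_P071346, at 7.65 against 5.89 to 6.05. It was low for TPI1 A_72_P303269, at 11.08 against 11.99 to 12.06, for ENO3 A_72_P035996, at 8.13 against 9.82 to 10.04, and for PC A_72_P303224, at 9.07 against 9.54 to 9.61. For PDK4 A_72_P170396 the supplemented boar m_9597 was high, with 7.35, while the rest had 6.74 to 6.83.

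In the litter of brothers all supplemented boars lay above all control boars, and in the other litters below them, for PGK2 A_72_P223397 (the diet differences differed by 0.52 on the log2 scale), PC A_72_P303224 (by 0.77), PDK1 A_72_P236277 (by 0.52) and the within-boar difference PGK2 minus PGK1 (by 0.997). PGK2 minus PGK1 contains PGK2 and is no separate observation. The diet difference was 0.029 for PGK2 and -0.38 for PGK1 in the brothers, and -0.49 and 0.10 in the others. Of the 23 member and pathway probes 3 had such opposite directions, and of all present probes 3.75%. These probes were picked for the pattern, and the tests are therefore descriptions. The test of diet by slide in limma gave unadjusted P-values of 0.230, 0.0488 and 0.111 for the 3 probes (1.996% of all present probes were under 0.05), with an adjusted p of 0.99996 each. For PGK2 minus PGK1 the difference was not tested.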

How the results depend on the processing

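No member probe had an unadjusted P under 0.05 between the diets under any of 21 alternatives. No member or pathway probe passed adjustment under any of them. The 4 boars per diet, and 2 on each slide, limit all of these values. The difference LDHC minus LDHA was not run, as neither had a named probe. The labels pair no single boar with another, and the replicate numbers only name the boars. The slide, which also separates the litter of brothers from the other boars, was fitted as a block and changed no call of a member or pathway probe.

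Among the pathway probes 1 had P under 0.05. This count was 5 with array weights, 0 in the other 4 boars alone and 0 to 5 when single boars were dropped. It came to 5 without m_9502, 2 without m_9597 and 0 without m_9600, m_9528 or m_9527. The share of all present probes under 0.05 in these fits was not counted, so that the counts are no result about the pathway. The adjusted p of ALDOC from limma was 0.840 with all boars, 0.284 with array weights and 0.279 without m_9502. Its unadjusted P was 0.0314, 0.0251 and 0.0202, so that more of all present probes had a low P in the last 2 fits. The probe of ALDOC, which made up the count with all boars, was also above 0.05 in limma with gProcessedSignal (unadjusted P = 0.0695), in the brothers alone (0.0995) and without m_9598 (0.0530), where PDK4 A_72_P170396, HK2 and PDK4 A_72_P293579 took its place. The number of members with P under 0.05 between the slides, 1, was 2 with array weights and 1 to 2 when single boars were dropped. Without m_9528 it was 2, and the smallest adjusted p, that of LDHB A_72_P321168, was 0.0978. PGK2 minus PGK1 moved to 0.41 in the brothers and -0.59 in the other boars, and lay between -0.25 and 0.11 when single boars were dropped.

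The sign of the following differences turned, and the cause was not tested. Most were small with all boars, but HK2 (-0.56), ENO3 (-0.42), PFKM (-0.25), PGK2 (-0.23) and PDK4 A_72_P388208 (-0.19) were larger. With gProcessedSignal this held for TPI1 A_72_P073361 (0.0498), SLC16A1 A_72_P280129 (0.0012) and SLC16A1 A_72_P294944 (-0.014). With array weights it held for TPI1 A_72_P073361 (0.25), TPI1 A_72_P303269 (0.035), PDK1 (0.11), SLC16A1 A_72_P294944 (-0.15), PC (0.20) and PDK4 A_72_P388208 (0.053), and between the slides for GPI (-0.12). In the brothers alone it held for ENO3 (0.22), TPI1 A_72_P073361 (0.22), TPI1 A_72_P303269 (0.0402), PGK2 (0.029), PDK1 (0.24), SLC16A1 A_72_P294944 (-0.19), PFKM (0.071) and PC (0.31). In the other boars alone it held for LDHB A_72_P007566 (0.044) and A_72_P321168 (0.092), PGK1 (0.10), HK2 (0.44) and SLC16A1 A_72_P280129 (0.13). Over the fits without 1 boar the ranges were -0.13 to 0.054 for LDHB A_72_P007566, -0.19 to 0.12 for LDHB A_72_P321168, -0.26 to 0.077 for GPI, -0.75 to 0.0403 for ENO3, -0.15 to 0.13 for TPI1 A_72_P073361, -0.31 to 0.10 for TPI1 A_72_P303269, -0.11 to 0.060 for PDK1, -0.077 to 0.0298 for SLC16A1 A_72_P280129, -0.0504 to 0.10 for SLC16A1 A_72_P294944 and -0.18 to 0.048 for PC. Between the slides they were -0.16 to 0.052 for LDHB A_72_P007566 and -0.20 to 0.20 for GPI.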
